A study of Mus musculus with 8 samples.

Results

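The genes described here build the actin filaments of muscle and of other cells. They are 9 members: the sarcomeric actins Acta1 and Actc1, the smooth muscle actin Acta2, the cytoplasmic actin Actb, the sarcomeric alpha-actinins Actn2 and Actn3, and the tropomyosins Tpm1, Tpm2 and Tpm3. Members were chosen by name, and every probe set annotated to 1 of them was taken, whatever its value. That gave 28 probe-set measurements out of 35067 with 1 gene symbol on 2 array types, called A and B here. They come from 25 distinct probe sets, because 3 Actb control probe sets sit on both types. Actb had 8 measurements, Tpm3 5, Tpm1 4, Tpm2 4 and Acta2 3, and the remaining genes had 1 each.

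The samples are total RNA of cultured mouse myotubes, which the series title calls primary. Each of 4 RNAs was hybridised to 1 array of each type, giving 8 arrays. RNA419 was grown and is labelled as wildtype, and RNA420 was grown and is labelled as truncated Egr-3, a zinc-finger transcription factor that myotubes express. RNA275 carries only an acclimatization treatment and RNA276 no treatment, so neither has a group. Their values are given singly and by their order beside the labelled RNAs, and they enter no comparison between groups. The labels state no age, strain or method of truncation, no shared allele, and no number of cultures behind an RNA. With 1 RNA for each label no test across replicates was possible, and no p-value is given.

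Actin polymerises into the thin filaments on which myosin pulls. In striated muscle these filaments carry tropomyosin along their length, which lets troponin and calcium switch contraction on, and alpha-actinin crosslinks their ends at the Z-disc. Developing muscle makes Actc1 and Acta2 before Acta1 becomes the main actin of adult fibres, while Actb builds the cytoskeleton of nearly every cell. The Tpm1, Tpm2 and Tpm3 genes each give muscle and non-muscle proteins through alternative promoters and exons. Actn2 is found in all striated fibres and in heart, whereas Actn3 is restricted to fast fibres.

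Actin genes are classic targets of serum response factor, which binds the CArG box. The promoters of Acta1, Actc1 and Acta2 are shown because these are the muscle actins whose isoforms are compared here, with 1 bright probe set each. The windows come from RefSeq (GRCm38.p6), read 5′ to 3′, run from 250 bases before to 50 after the annotated start, and carry CArG matches in capitals. They lie at chr8:123894726-123895025, chr2:114052826-114053125 and chr19:34255324-34255623, all on the minus strand.
Acta1: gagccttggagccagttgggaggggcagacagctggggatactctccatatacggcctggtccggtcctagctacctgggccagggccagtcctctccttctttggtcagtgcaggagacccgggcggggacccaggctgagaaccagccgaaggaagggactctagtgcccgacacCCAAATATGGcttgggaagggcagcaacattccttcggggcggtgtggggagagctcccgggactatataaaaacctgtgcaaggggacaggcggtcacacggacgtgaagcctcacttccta
Actc1: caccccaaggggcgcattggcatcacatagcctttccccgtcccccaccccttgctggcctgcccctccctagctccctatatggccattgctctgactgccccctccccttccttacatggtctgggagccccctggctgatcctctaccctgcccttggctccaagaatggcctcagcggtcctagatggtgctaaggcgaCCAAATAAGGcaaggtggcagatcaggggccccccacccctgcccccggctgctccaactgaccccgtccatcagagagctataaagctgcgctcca
Acta2: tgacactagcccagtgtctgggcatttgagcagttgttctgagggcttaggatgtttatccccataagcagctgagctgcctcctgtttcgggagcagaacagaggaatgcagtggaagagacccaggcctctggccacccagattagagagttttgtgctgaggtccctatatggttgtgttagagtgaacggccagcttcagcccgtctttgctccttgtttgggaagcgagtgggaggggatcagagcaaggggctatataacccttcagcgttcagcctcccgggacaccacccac

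The CArG box was searched on both strands, and 1.63% of all 32851 promoter windows held a match. The match covered bases 178 to 187 of the Acta1 window and bases 204 to 213 of the Actc1 window. The Acta2 window held no exact match to CCWWWWWWGG (W for A or T), which says only that these letters are not in this window. It holds ccctatatgg and ccttgtttgg, where a C or G stands in place of a W. Near matches like these, which the Acta1 and Actc1 windows hold too, were not counted. The MCAT element CATTCC, to which TEAD factors bind, matched in Acta1, Acta2 and Tpm1, beside 14.7% of all windows. Among the other members' windows, those of Actn2, Tpm1, Tpm2 and the 2 windows of Tpm3 held no CArG match. The E-box CANNTG matched in every member window, beside 72.3% of all windows. Matches of different motifs in the member windows did not overlap. Actb and Actn3 were not matched to the promoter table. The window of the cytoplasmic actin Actg1, which is not a member, held a CArG match as well. A match is a description of the sequence, not a measured binding site.

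Signals are intensities in arbitrary units, with the same trimmed mean on all 8 arrays. The same Actb control probe sets read far higher on type B than on type A, so signals of the types share no common scale. Signals below a floor of 67.6 on type A or 112.6 on type B were set to it. A measurement is called measured here if wildtype, truncated Egr3 or both exceeded the floor. Of the 28, 27 were measured, all with both arrays above the floor, so no difference given here for a member is a bound. All 12 listed myotube markers were measured in these 2 RNAs, among them the embryonic myosin gene Myh3 at 2871 and 2389 and the fusion gene Mymk at 1666 and 1596. Macrophage markers were mostly below the floor, with 2 of 9 measured: the receptor gene Csf1r with a log2 difference of 0.08 between them and Laptm5 with -0.16. Among 100 probe sets present on both types, the SD of a single log2 difference between wildtype and truncated Egr3 was 0.179, which is used below as the technical SD. Type A gave differences 0.14 above those of type B for these probe sets. Their median signal reached the 86.2 percentile of type A, and the SD was not measured for dim ones. The SD covers the arrays and not the spread between cultures.

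No member probe set was 2-fold apart between wildtype and truncated Egr3. The count was 0 of 27, where 0.962% of all 18407 measured probe sets were at least 2-fold higher in wildtype and 0.766% at least 2-fold lower, 1.73% in all. Of the member measurements 20 differed by more than the technical SD, beside 55.2% of all measured probe sets. The bright actin probe sets all read somewhat higher in wildtype, by 0.22 to 0.38 on the log2 scale on type A. Sarcomeric, smooth muscle and cytoplasmic actins shared that range. The smooth muscle entry is Acta2 1416454_s_at, whose suffix marks probes shared with other genes. In bulk RNA, fewer cells of a type and less RNA per cell cannot be told apart.

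**Figure D1:**
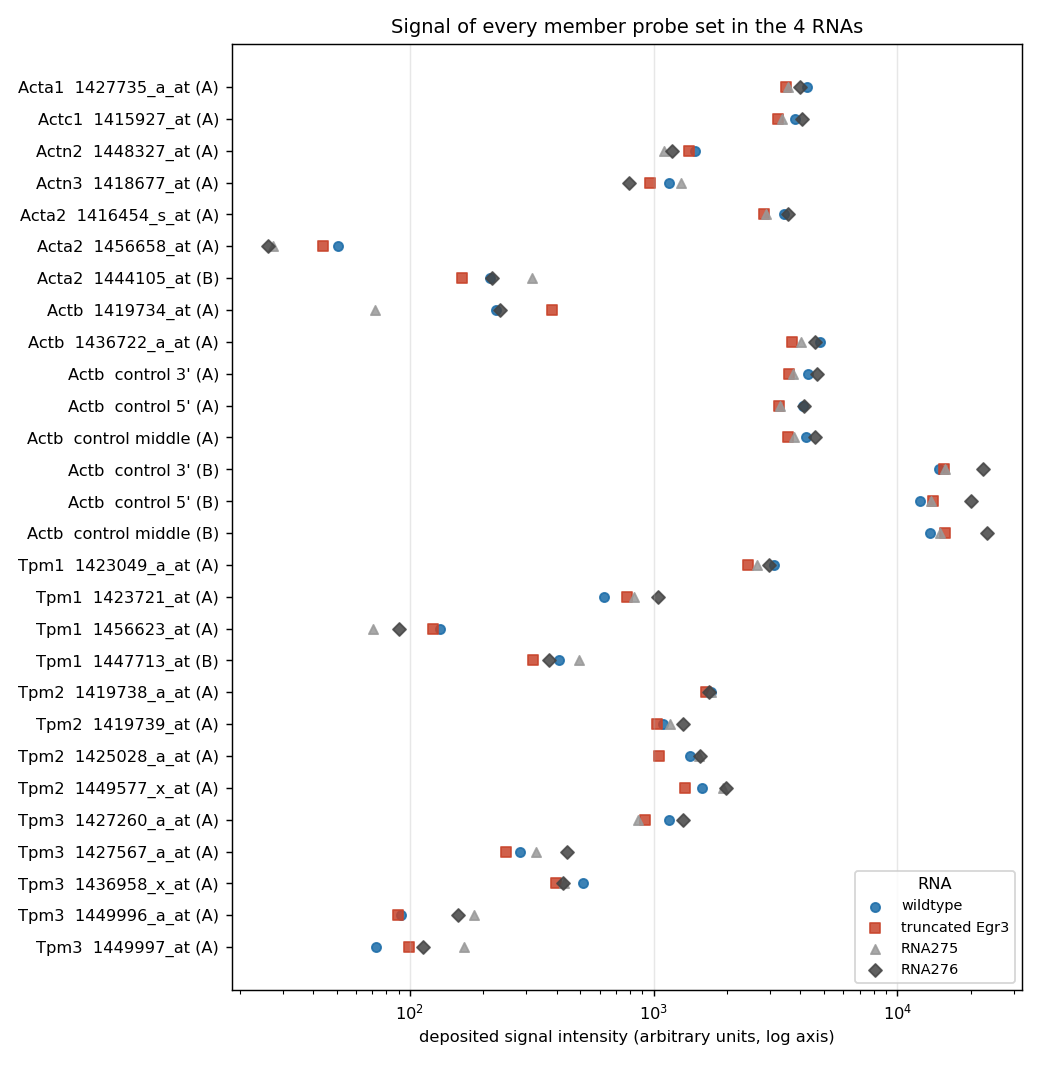
Deposited signal (x axis, arbitrary units, log scale) of all 28 member measurements (1 line each, array type in brackets) in the 4 RNAs, 1 point per array. Bright actin probe sets on type A lie close together between 2848 and 4809, while Actb 1419734_at spreads from 72.0 to 382.

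The skeletal actin Acta1, the main thin filament protein of adult skeletal muscle, has 1 probe set (1427735_a_at). It read 4266 in wildtype, 3498 in truncated Egr3, 3554 in RNA275 and 3998 in RNA276. Wildtype was highest and truncated Egr3 lowest, with a log2 difference of 0.29. RNA275 lay close to truncated Egr3.

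Actc1, the cardiac actin that is also made by embryonic and cultured skeletal muscle, gave a similar picture. Its probe set (1415927_at) read 3796 in wildtype, 3250 in truncated Egr3, 3352 in RNA275 and 4058 in RNA276, a log2 difference of 0.22 between the labelled RNAs. RNA276 and wildtype were the higher pair and RNA275 and truncated Egr3 the lower pair.

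The smooth muscle actin Acta2, which immature muscle cells also make, was read by 3 probe sets that lay at very different signals. The bright probe set 1416454_s_at read 3427 in wildtype, 2848 in truncated Egr3, 2890 in RNA275 and 3576 in RNA276, a log2 difference of 0.27. The suffix _s marks probes shared by transcripts of more than 1 gene, so its signal cannot be assigned to Acta2 alone. The type B probe set 1444105_at read 213 in wildtype, 164 in truncated Egr3, 318 in RNA275 and 217 in RNA276, a log2 difference of 0.38. RNA275 was the highest here and next to lowest by the bright probe set. The third, 1456658_at, stayed below the floor in all 4 RNAs, at 50.8 in wildtype and 44.0 in truncated Egr3.

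Smooth muscle markers were read beside Acta2. Of 9 markers 5 were measured, 3 above 0 and 2 below, and Myh11, Cnn1, Myocd and Lmod1, which define differentiated smooth muscle, were below the floor, with Myh11 at 13.4 in wildtype and 7.43 in truncated Egr3. The summed signal of the 9, as deposited and without the floor, was 4632 in wildtype and 3703 in truncated Egr3. Of these sums Des, which is also on the myotube list, gave 1523 and 1659. Most of the gap between the sums lay in Tagln (1946 and 1093), an actin-binding protein that immature muscle cells make too. Smtn, the actin-binding smoothelin, read 741 and 492 (0.59). The visceral actin Actg2 (-0.58) and the intermediate filament gene Des (-0.12, with 0.23 by another probe set) were below 0. Its part in the Acta2 values was not tested.

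The cytoplasmic actin Actb is often taken as a reference gene, and its probe sets did not share a direction. The brightest, 1436722_a_at, read 4809 in wildtype, 3694 in truncated Egr3, 4027 in RNA275 and 4592 in RNA276, which gives a log2 difference of 0.38. The dimmer probe set 1419734_at read 226 in wildtype, 382 in truncated Egr3, 72.0 in RNA275 and 233 in RNA276. Its log2 difference was -0.76, the largest of any member in size and the 1 of 27 beyond 1.5-fold, where 9.19% of all measured probe sets lay that far apart. It spanned 2.41 in log2 over the 4 RNAs, while 1436722_a_at spanned 0.38. Truncated Egr3 was thus highest by 1419734_at and lowest by 1436722_a_at.

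The 3 Actb control probe sets, which read the 3′ end, the middle and the 5′ end of the transcript, were measured on both array types with the same RNAs. On type A the 3′ probe set read 4289 in wildtype, 3606 in truncated Egr3, 3750 in RNA275 and 4663 in RNA276. On type B it read 14810, 15589, 15684 and 22420 in the same order. The log2 differences of wildtype minus truncated Egr3 were 0.25 (3′), 0.25 (middle) and 0.33 (5′) on type A. On type B they were -0.07, -0.20 and -0.18, with the first turning positive under quantile normalization and all 3 under loess. Wildtype therefore held the next to highest Actb signal on type A and the lowest on type B. The gap between types was 0.32, 0.45 and 0.50, or 0.73, 1.24 and 1.44 SDs above the mean gap of the 100 shared probe sets. The ratio of 3′ to 5′ signal, a sign of RNA quality, was lowest in wildtype on type A (1.05, others 1.10 to 1.14) and highest in wildtype on type B (1.19, others 1.11 to 1.14).

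**Figure D2:**
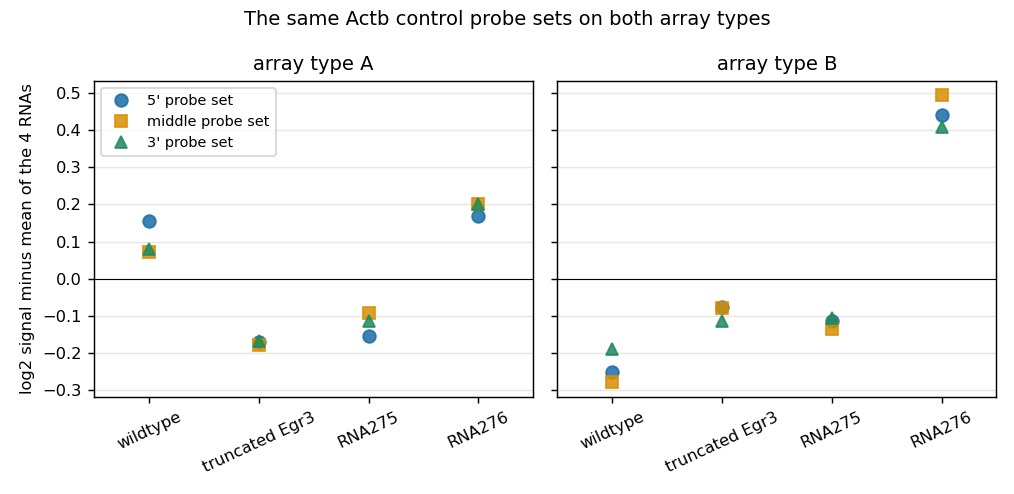
Log2 signal of the 3 Actb control probe sets minus each one's mean over the 4 RNAs (y axis), for array type A (left) and B (right). Wildtype lies above truncated Egr3 on type A and below it on type B, and RNA276 is highest on both.

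The sarcomeric members, all read on type A, lay above 0 throughout. Acta2 did so too where it was measured, while Actb lay on both sides of 0. The Actb values below 0 came from 1419734_at and from the control probe sets on type B. The 4 sarcomeric measurements (Acta1, Actc1, Actn2 and Actn3) had a median log2 difference of 0.24, from 0.08 to 0.29. The 10 measured smooth muscle and cytoplasmic ones had a median of 0.25, from -0.76 to 0.38, with 6 above 0 and 4 below, and 8 of these 10 belong to Actb. The sarcomeric median minus the other was -0.01, a difference with no error of its own here. With 1 probe set a gene, the brightest, the medians were 0.24 and 0.32. The 13 tropomyosin measurements had a median of 0.18, and all measured probe sets one of -0.01. Of all 27 member measurements, 21 lay above 0, against 49% of all measured probe sets. Among the 138 brightest probe sets of type A, that share was 79.7%. Under quantile normalization 22 member measurements and 48.9% of all lay above 0, and under loess 24 and 49.6%. Under equal medians, which took the median of all measured probe sets to -0.10, 19 member measurements and 37.0% of all lay above 0. In that scaling 137 of all probe sets were 2-fold higher and 206 lower, in place of 177 and 141.

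**Figure D3:**
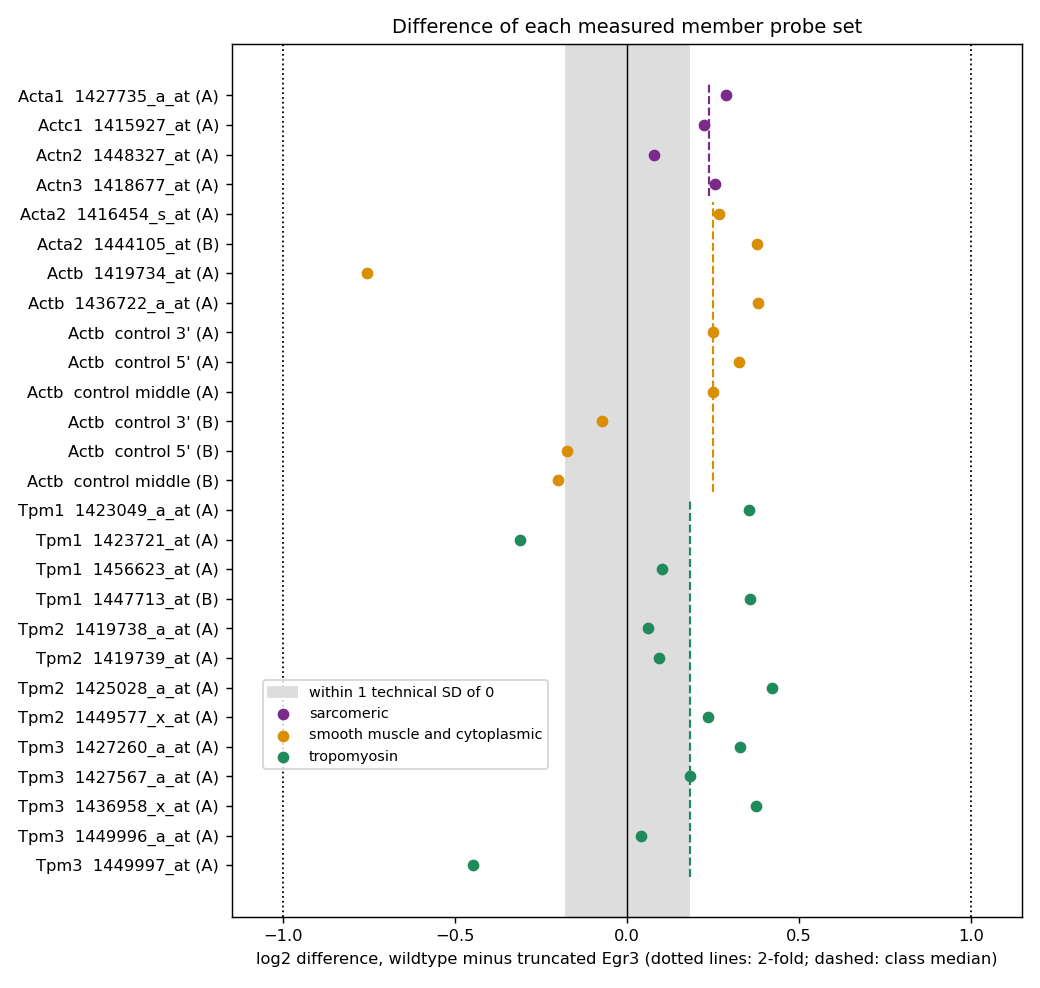
Log2 difference of wildtype minus truncated Egr3 (x axis) for the 27 measured member measurements, coloured by class. The dashed lines mark class medians of 0.24, 0.25 and 0.18, the grey band marks 1 technical SD (0.179), and no point reaches the dotted 2-fold lines.

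Signal level moved with these differences. Of the member measurements, 8 were in the top 1% of type A by signal: Acta1, Actc1, Acta2 1416454_s_at, Actb 1436722_a_at, the 3 Actb controls and Tpm1 1423049_a_at. All 8 were higher in wildtype and lowest of the 4 RNAs in truncated Egr3. Among the 138 top probe sets with 1 gene symbol, 79.7% were higher in wildtype, with a median of 0.16 and quartiles of 0.06 and 0.27, and 65.9% were lowest in truncated Egr3. The share for all measured probe sets was 22.6%. The highest signal of any probe set on the type A arrays was 5082 in wildtype, 4410 in truncated Egr3, 4850 in RNA275 and 5485 in RNA276. Quantile normalization, which gives the bright ends of the arrays one distribution, took Acta1 from 0.29 to 0.05, Actc1 from 0.22 to 0.02 and Actb 1436722_a_at from 0.38 to 0.13. Loess took them to 0.17, 0.11 and 0.25. The part that the bright end of the arrays plays in the actin differences was tested only through these scalings.

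**Figure D4:**
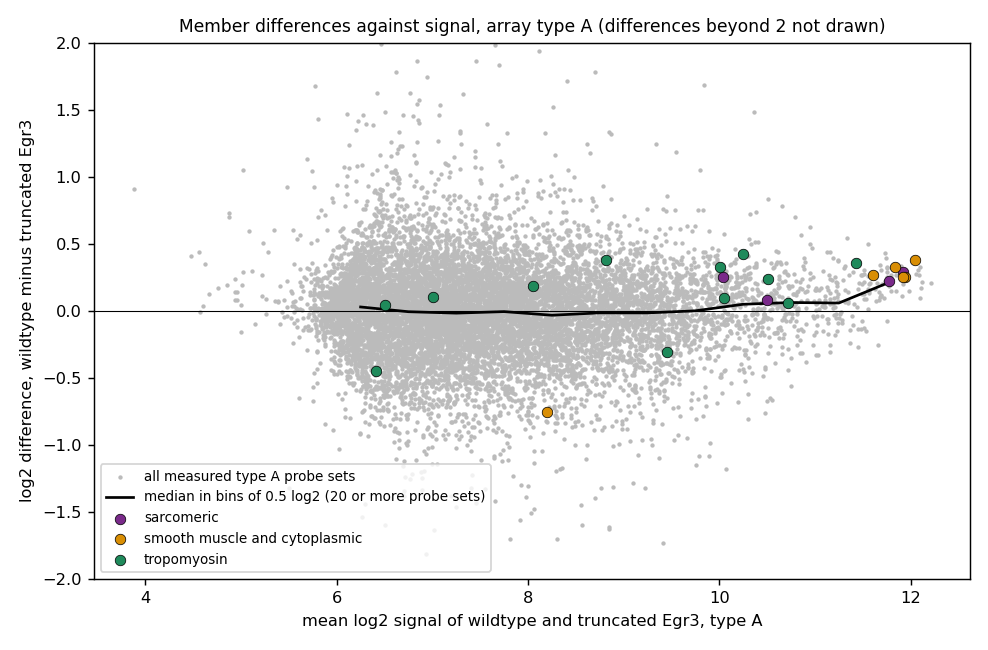
Log2 difference of wildtype minus truncated Egr3 (y axis) against mean log2 signal (x axis) for measured type A probe sets (grey), with members coloured by class and the median in bins of signal as a line. The actins sit at the bright end, where the line is above 0; differences beyond 2 are not drawn.

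The alpha-actinins, the crosslinkers of the Z-disc, showed small differences between the labelled RNAs and their own order over the 4. Actn2 (1448327_at) read 1482 in wildtype, 1403 in truncated Egr3, 1100 in RNA275 and 1193 in RNA276. Its log2 difference of 0.08 was under the technical SD, and the labelled RNAs were the higher pair. Actn3 (1418677_at), the fast-fibre form, read 1153 in wildtype, 966 in truncated Egr3, 1292 in RNA275 and 791 in RNA276, with a log2 difference of 0.26. RNA275 was thus highest for Actn3 and lowest for Actn2.

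Ratios within an array do not depend on a common factor between arrays, so they were compared between RNAs. The log2 ratio of Acta1 to Actb 1436722_a_at differed by -0.09 between wildtype and truncated Egr3 and ranged over 0.12 in the 4 RNAs. For Actc1 and Acta2 over that Actb probe set the wildtype minus truncated-Egr3 differences were -0.16 and -0.11, with ranges of 0.16 and 0.13. Acta2 was read here by 1416454_s_at, whose signal cannot be assigned to Acta2 alone. These probe sets lie near the highest signals of the type A arrays. There the 3 Actb controls spanned 0.34 to 0.38 in log2 over the RNAs, against 0.60 to 0.77 on type B. The ratios were computed on type A only, and the part of array type in their narrow range was not tested. The ratio of Actn3 to Actn2 ranged over 0.83: it was 0.23 in RNA275, -0.36 in wildtype, -0.54 in truncated Egr3 and -0.59 in RNA276. RNA275 stood apart from the other RNAs in that ratio, and its sign and size have no meaning as relative amounts, since 2 probe sets need not read alike.

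**Figure D5:**
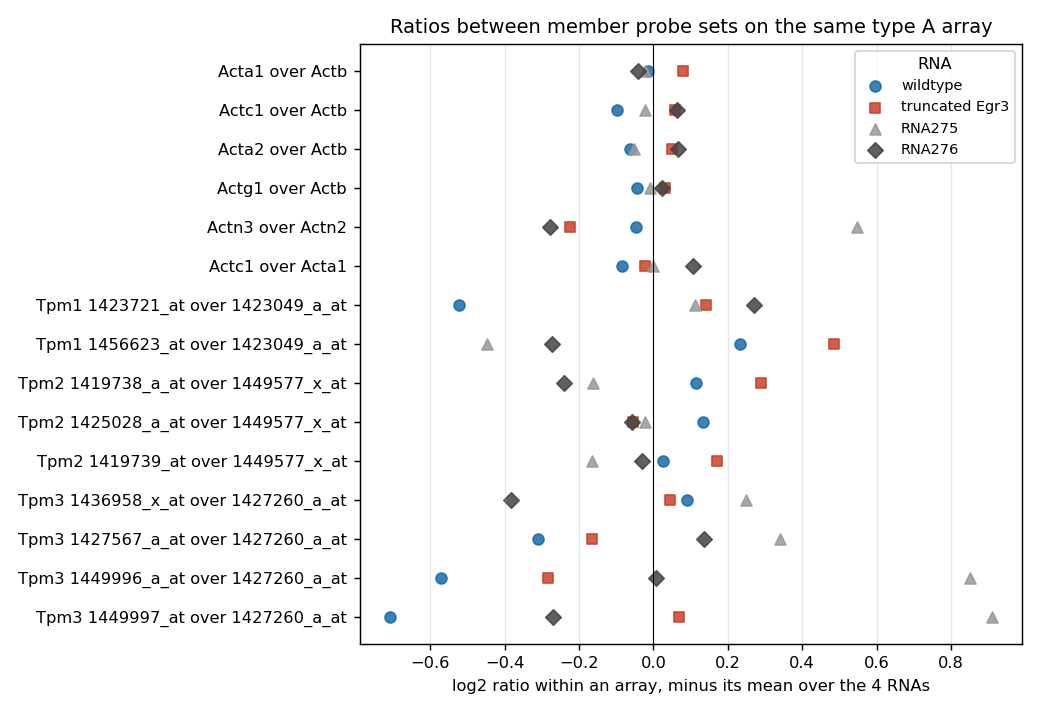
Log2 ratio of 2 probe sets on the same type A array, minus its mean over the 4 RNAs (x axis), 1 point per RNA. Actin ratios span at most 0.19 over the RNAs, while Actn3 over Actn2 spans 0.83 and the tropomyosin pairs span 0.19 to 1.62.

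The tropomyosins, the coiled-coil proteins that lie in the groove of the actin filament, had probe sets that disagreed within a gene. Tpm1, the alpha-tropomyosin of fast and cardiac muscle, was led by 1423049_a_at, which read 3126 in wildtype, 2447 in truncated Egr3, 2651 in RNA275 and 2986 in RNA276, a log2 difference of 0.35. By 1423721_at the labelled RNAs changed places, with 628 in wildtype, 779 in truncated Egr3, 827 in RNA275 and 1040 in RNA276, a log2 difference of -0.31. Wildtype was highest by the first and lowest by the second, and the ratio of the second to the first differed by -0.66 between wildtype and truncated Egr3. The type B probe set 1447713_at followed the first in that comparison, at 409 and 320 (0.36), and the dim 1456623_at read 133 and 124 (0.10). Which transcripts each Tpm1 probe set reads was not analysed here.

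Tpm2, the beta-tropomyosin of slow and embryonic muscle, gave 4 positive differences. The probe set 1425028_a_at read 1408 in wildtype, 1051 in truncated Egr3, 1539 in RNA275 and 1545 in RNA276, and its log2 difference of 0.42 was the largest positive one among the members. The probe set 1449577_x_at, whose suffix _x marks possible cross-hybridisation, read 1583 in wildtype and 1345 in truncated Egr3 (0.24). The other 2 lay within the technical SD, at 0.09 for 1419739_at and 0.06 for 1419738_a_at, the latter at -0.002 under equal medians. Truncated Egr3 was lowest of the 4 RNAs by all 4 Tpm2 probe sets. By 1419738_a_at, however, the 4 RNAs spanned only 1648 to 1725, a range of 0.07 in log2.

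Tpm3, which gives the slow-muscle tropomyosin and a widespread cytoskeletal form, was split over 5 probe sets. The brightest, 1427260_a_at, read 1155 in wildtype, 920 in truncated Egr3, 861 in RNA275 and 1326 in RNA276, a log2 difference of 0.33. The probe sets 1436958_x_at and 1427567_a_at gave 0.37 and 0.18. The dim probe set 1449997_at went the other way (72.6 in wildtype and 99.2 in truncated Egr3, -0.45), close to the floor. The probe set 1449996_a_at read 92.1 in wildtype, 89.5 in truncated Egr3, 184 in RNA275 and 158 in RNA276, so the RNAs without a group were both above the labelled ones. Its ratio to 1427260_a_at ranged over 1.42 in log2, and that of 1449997_at over 1.62, the widest of the 15 ratios computed.

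Over the 4 RNAs the members had a median log2 range of 0.56, and all measured probe sets one of 0.65. Both were taken on deposited signals not set to the floor, so values below it could enter the range of all. Truncated Egr3 was the lowest RNA in 17 of the 27 measurements. The share lowest in that RNA was 22.6% for all measured probe sets and 65.9% for the top 138 on type A. Truncated Egr3 was highest only by Actb 1419734_at. RNA276 was highest in 14, where 29% of all measured probe sets and 56.5% of the top 138 on type A had their highest signal in that RNA. By the Actb 5′ control, RNA276 exceeded the other RNAs by more on type B (20149 against 12451 to 14067) than on type A (4131 against 3265 to 4096). It was not highest by 1436722_a_at or 1419734_at.

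Relatives of the members with non-muscle or visceral roles gave 7 probe sets. Actg1, the other cytoplasmic actin, read 3683 in wildtype, 2982 in truncated Egr3, 3164 in RNA275 and 3685 in RNA276 by a probe set marked _s, a log2 difference of 0.30. Tpm4, a cytoskeletal tropomyosin, read 1758 in wildtype and 1368 in truncated Egr3 (0.36). Both lay in the range of the bright actins. The visceral smooth muscle actin Actg2 went the other way, at 185 in wildtype, 278 in truncated Egr3, 270 in RNA275 and 242 in RNA276, a log2 difference of -0.58. The non-muscle alpha-actinins were close to 0 or mixed, with Actn4 at 0.11 and the 3 Actn1 probe sets at 0.24, 0.25 and -0.40. None of the 7 was 2-fold apart.

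Proteins that set the length and capping of thin filaments lay on both sides of 0. Of 15 measured genes 6 were above 0 and 9 below, with a median of -0.09 beside -0.0007 for all 10307 measured genes. Of those genes 49.9% lay above 0, 1.13% were 2-fold higher and 0.534% lower. None of the 15 was 2-fold apart. Lmod2, a nucleator that lengthens thin filaments, read 139 in wildtype and 220 in truncated Egr3 (-0.66). Tmod3, a pointed-end capping protein, read 195 and 136 (0.53), but its other probe sets ranged from -0.47 to 0.14.

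Actin turnover proteins divided evenly, with 7 of 14 above 0, a median of 0.05 and none 2-fold apart by the probe set used. Gsn, the severing protein gelsolin, read 386 in wildtype and 712 in truncated Egr3 (-0.88), and its 3 other probe sets ranged from -1.63 to -0.70, so all 4 had the same sign. Cap2, a cyclase-associated protein that recycles actin monomers in muscle, read 609 and 392 (0.64).

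Z-disc partners of alpha-actinin had 6 of 15 measured genes above 0 and 9 below, near the 49.9% of all genes above 0, with a median of -0.07 and none 2-fold apart. Csrp3, the muscle LIM protein, read 394 in wildtype, 689 in truncated Egr3, 386 in RNA275 and 829 in RNA276, a log2 difference of -0.81. Myot, the filament bundler myotilin, read 449 in wildtype and 686 in truncated Egr3 (-0.61).

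Serum response factor and its cytoskeletal targets had 7 of 14 measured genes above 0, a median of 0.02 and none 2-fold apart. Srf itself read 227 in wildtype and 197 in truncated Egr3 (0.20, with 0.52 by another probe set). Tagln stood at 0.83 and Fhl1, a LIM protein of striated muscle, at -0.81 (652 and 1140), so the 2 largest differences of the list had opposite signs. The fibroblast list had 8 of 11 genes measured and a median of -0.12, and its summed signal was 11628 in wildtype and 11588 in truncated Egr3. Its member Dcn, a matrix proteoglycan, was 2-fold lower in wildtype, at 157 against 317. Of the 12 myotube markers 10 were above 0, with a median of 0.18, and Mymx, a fusion micropeptide gene, was 2-fold higher in wildtype (3082 against 1446).

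The genes most like 4 of the actins were found by the distance between log2 signals centred over the 4 RNAs, among 5939 type A genes above the floor in all 4, with the members left out. For Acta1 they were Ercc3, Pex6 and Rab34, at distances of 0.04, 0.05 and 0.05. For Actc1 they were Gne, Srm and Cdk16, at 0.01, 0.03 and 0.04. For Acta2 they were Vps29, Gne and Rhbdd2, at 0.03, 0.04 and 0.05. For Actb they were Anxa1, Nfya and Cct6a, at 0.02, 0.04 and 0.04. These genes ranged in signal from the 58.1 to the 98.8 percentile of type A. Among the members, Tpm1 lay 0.02 from Actb, nearer than Nfya and Cct6a, and Actc1 lay 0.05 from Acta2. Distances of Acta2 rest on 1416454_s_at, which may read other genes too. Acta1 lay nearer to Tpm1 (0.08) and Actb (0.09) than to Acta2 (0.12) or Actc1 (0.14), and Actn3 lay 0.62 to 0.73 from the 4 actins. With 4 RNAs many genes come close by arithmetic alone, so these distances are a description.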

How the data were processed

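For 4 mouse myotube RNAs on 2 array types, the authors deposited linear intensity values, 1 for each probe set of each array. Which software made and scaled them is not given in the sources used here. All 8 arrays had a trimmed mean of 150.0 after dropping 2% at either end, and this deposited scale was kept. Probe sets were named from the platform's annotation, updated by gene number through RefSeq (GRCm38.p6). Of 22690 probe sets on type A and 22575 on type B, 20393 and 14674 had 1 symbol, 691 and 245 several, and 1606 and 7656 none.

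The floor was the 50th percentile on type A and the 60th on type B, taken over both labelled RNAs together, and log2 was taken after it. With 1 RNA for each label, differences were described and counted at 2-fold, with no test. Per gene list, the brightest probe set was used, on type A before type B. Named genes are all members and relatives, list genes 2-fold apart or otherwise the 2 largest, and the 3 nearest genes of 4 actins. Myh3, Mymk, Myh11, Des and Srf were named after their values were seen, as were the ratios within an array. The members and lists were chosen with earlier results of these data known. The counting was tested on simulated data. Alternatives were other scalings, floors, thresholds and choices of probe sets. Python 3.11.15, numpy 2.4.6, pandas 2.3.3, statsmodels 0.14.6 (loess span 0.3) and matplotlib 3.10.9 were used.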

Additional observations from a re-analysis of the deposited data

Results flagged for a closer look

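The Actn1 probe set 1427385_s_at, for a non-muscle alpha-actinin, read 586.5 in RNA276, which belongs to no group. That was more than 2-fold above the higher of the labelled RNAs (222 in wildtype and 292 in truncated Egr3), and RNA275 read 316. The other Actn1 probe sets read 1089 and 388 in RNA276, -0.06 and 0.27 in log2 relative to the higher labelled RNA. Among the members, Tpm3 1449996_a_at came close to that distance upward, at 184 in RNA275 against 92.1 in wildtype and 89.5 in truncated Egr3. Downward, Actb 1419734_at in RNA275 lay more than 2-fold below the lower of the labelled RNAs. It read 72.0 there, close to the floor, against 226 in wildtype and 382 in truncated Egr3.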

How the results depend on the processing

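No member probe set was 2-fold apart under the 3 other scalings, the 3 other floors or the other choices of probe sets, and 1 was at 1.5-fold. With quantile normalization the sarcomeric median was 0.060 and the smooth muscle and cytoplasmic median 0.062, and their difference was -0.002. Over all alternatives that difference lay between -0.08 and 0.14, the highest without probe sets marked _a, _s or _x. The type A restriction was chosen after seeing the data and again gave 0 members at 2-fold. Signs changed for 1 member measurement under quantile normalization, 2 under equal medians and 3 under loess. Those under quantile normalization and loess were all Actb control probe sets on type B. With no floor, the SRF, smooth muscle and macrophage lists each had 1 gene 2-fold apart in place of 0, and the smooth muscle marker median was 0.59 in place of 0.24. The myotube count became 0 in place of 1 under equal medians, and the fibroblast count 0 in place of 1 under loess; both were 0 at 3-fold. At 1.5-fold the thin filament list had 1, and the turnover, Z-disc, SRF, smooth muscle and fibroblast lists 2 each. No paired analysis was possible because each label has 1 RNA, and for the same reason no replicate could be left out. The number of arrays limits the precision.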
